A study of Mus musculus with 10 samples.

Results

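The genes described here are 10 genes through which the kidney responds to the adrenal steroids and takes up sodium, out of 13299 genes in the expression table. They were chosen by symbol, and all 10 were found. They encode the 3 subunits of the epithelial sodium channel ENaC (Scnn1a, Scnn1b and Scnn1g), the mineralocorticoid receptor (Nr3c2), the glucocorticoid receptor (Nr3c1), the enzyme that inactivates glucocorticoids in aldosterone target cells (Hsd11b2), and 4 genes known to be induced by corticosteroids (Sgk1, Tsc22d3, Fkbp5 and Fxyd4). Their mRNA was compared between 5 whole-kidney samples of Rragc S74N/+ mice and 5 of Rragc +/+ mice, all 1.5 years old and, per the study's reporting summary, C57BL/6. Rragc encodes RagC, one of the Rag GTPases that bring the kinase complex mTORC1 to the lysosome when amino acids are plentiful. The S74N change is a knock-in of an active form of RagC on 1 allele in every cell of the body. The study describes homozygous mice as not viable, so the comparison covers heterozygous animals only, and no group carried the change in the kidney alone. The labels give neither the sex of the animals nor a replicate number, and replicates were numbered 1 to 5 within each genotype by order of deposit. Reads of 4 Y-linked genes were present in all 10 samples.

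As background, ENaC sits in the apical membrane of the late distal convoluted tubule, the connecting tubule and the collecting duct, and lets sodium enter these cells from the urine. Aldosterone binds the mineralocorticoid receptor, which raises the transcription of the channel's alpha subunit and of the kinase SGK1. SGK1 in turn holds back the ubiquitin ligase NEDD4-2, which would otherwise remove ENaC from the membrane. Glucocorticoids bind the same receptor, and HSD11B2 keeps it free for aldosterone by oxidising them. The glucocorticoid receptor is present in nearly all kidney cells and induces genes such as Tsc22d3, Per1 and Fkbp5.

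Both receptors bind the hexamer AGAACA, or TGTTCT on the other strand, and bind with high affinity where 2 such hexamers face each other across 3 bases, as in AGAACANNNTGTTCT. RefSeq promoter windows of 300 bases (250 before and 50 after a transcription start, build GRCm38.p6) were at hand for 7 of the 10 genes, in 14 windows. The hexamer, on either strand, lay in 4 of the 14 windows, against 18.9% of 32544 mouse promoter windows of that length. The full 15-base site, which contains 2 of these hexamers, was in 3 of the 32544 windows (0.00922%), and 1 of those 3 was a window of Sgk1. Starts were numbered along the strand of the gene. The stretches of 30 bases below are shown because they are the matches in the 2 genes with any, Sgk1 with 6 windows and Tsc22d3 with 3, and the capitals mark the hexamer. A match is only a match of letters, and nothing was measured at these sites.
Sgk1, 5th start, chr10:21993694-21993723, plus strand, 196 to 167 bases before the start: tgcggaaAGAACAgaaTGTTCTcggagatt
Sgk1, 1st start, chr10:21881977-21882006, plus strand: aagggaatccgtTGTTCTgtgttttctgtg
Sgk1, 4th start, chr10:21992198-21992227, plus strand: aaagtgggactcAGAACAgaaaggcaatag
Tsc22d3, 1st start, chrX:140600690-140600719, minus strand: ccgcattcgacaTGTTCTaagttctgagac
The window of the 5th Sgk1 start also held the hexamer 242 bases before the start. The single windows of Scnn1b, Scnn1g, Nr3c2, Fkbp5 and Fxyd4 did not hold it. Windows of Scnn1a, Nr3c1 and Hsd11b2 were not analysed here.

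Expression was read from libraries primed at the poly(A) tail, in which a count does not scale with transcript length, although it does depend on where a transcript ends. A normalized count is the number of reads of a gene divided by a size factor of its sample. The 10 samples held 4488493 to 5797251 reads assigned to genes. Rragc itself, whose allele is edited at 1 codon and not deleted, had normalized counts of 115, 114, 118, 181 and 204 in Rragc +/+ kidneys and 160, 90.1, 135, 123 and 110 in Rragc S74N/+ kidneys. These values overlap, and 3′ reads do not tell the edited allele from the other.

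None of the 10 genes passed the main test between genotypes, which was by limma. Genes were tested with limma on log2(normalized count + 1), two-sided, and p-values were adjusted (Benjamini-Hochberg) over 13236 genes tested at a threshold of 0.05. In that fit 0 of 10 genes were called in either direction, beside 6.03% of all genes tested, which were 3.45% called higher in Rragc S74N/+ kidneys (457 genes) and 2.58% called lower (341 genes). That split depends on the scaling, and with columns scaled to equal totals it was 718 higher and 225 lower. Leaving the genes of the mitochondrial genome out of those totals gave 608 higher and 274 lower. At an unadjusted p under 0.05 there were 3 of the 10 genes (Scnn1a, Tsc22d3 and Nr3c1) and 3360 of all genes tested (25.4%). In the normalized counts as deposited, no gene of the 10 had groups without overlap, beside 8.16% of all genes tested. On the recovered whole reads, edgeR called 0 of the 10 genes, beside 6.3% of all genes, and DESeq2 called 2, Scnn1a and Tsc22d3, beside 10.2%. The study's methods name DESeq as its own test of differential expression. On 8 samples edgeR called 1 of the 10, beside 6.43% of all genes, and DESeq2 2, beside 10.6%. With the range of the sample titles (given below) as a term, limma called 2 of the 10, beside 6.5% of all genes. The median log2 fold change was 0.03 over the 10 genes and -0.01 over all genes tested.

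**Figure D1:**
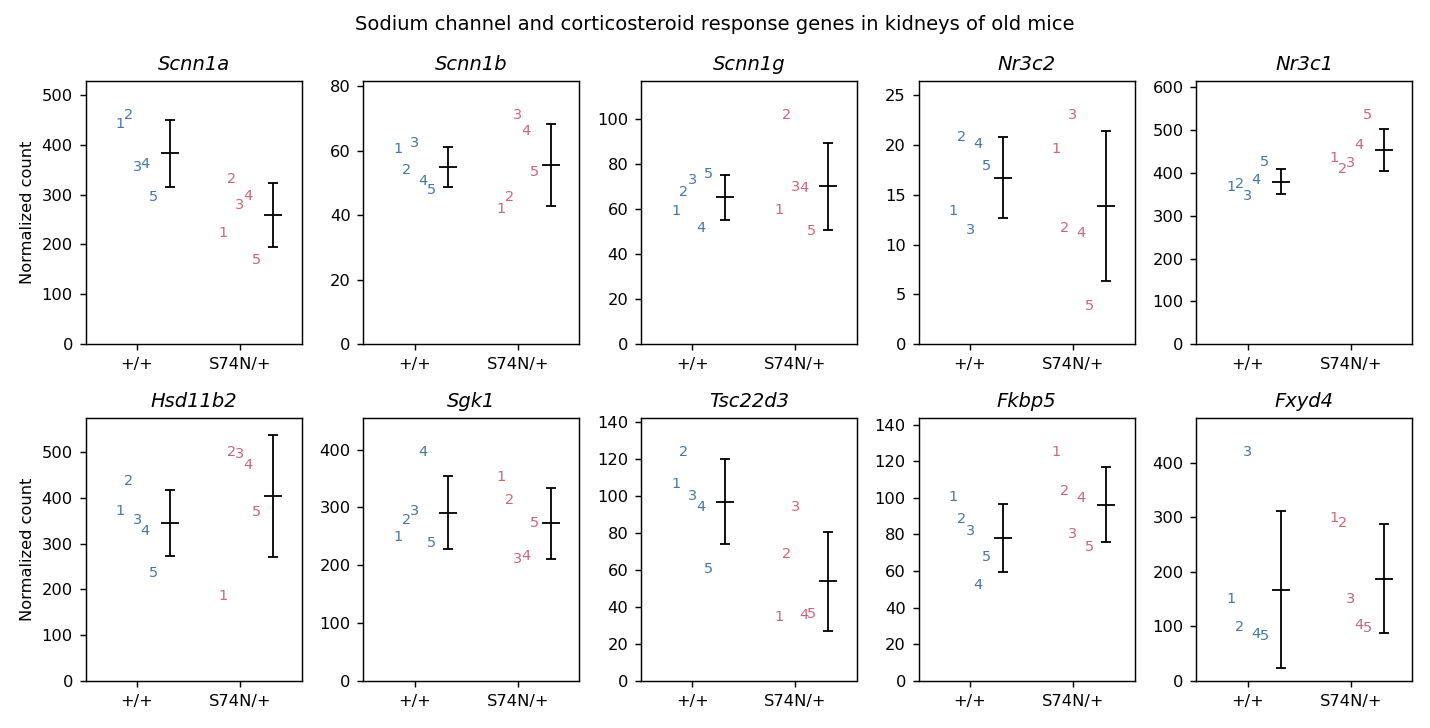
Normalized count (vertical axis, from 0) of each of the 10 genes in Rragc +/+ (blue) and Rragc S74N/+ (red) kidneys. Each digit is the sample of that replicate number, and the black bar is the mean with its SD over 5 samples. All 5 Rragc S74N/+ samples lie below the Rragc +/+ median for Scnn1a and Tsc22d3, and the groups overlap for all 10 genes.

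Of the 3 channel subunits, the alpha subunit Scnn1a had the widest gap between the genotypes, with Rragc S74N/+ kidneys at 0.67 times the level of Rragc +/+ kidneys in the log2 fit, while the genotype means of the beta and of the gamma subunit lay close together. The alpha subunit is the one a working channel cannot do without. Its normalized counts were 442, 459, 356, 362 and 295 in Rragc +/+ kidneys, and 223, 331, 280, 296 and 169 in Rragc S74N/+ kidneys. All 5 Rragc S74N/+ samples lay below the Rragc +/+ median of 362 and 3 of them below every Rragc +/+ sample, while the lowest Rragc +/+ sample, replicate 5, lay within the other group's range. The means were 383 ± 67.2 and 260 ± 63.9 (SD, n = 5 each). The log2 fold change was -0.58 (SE 0.18, 95% confidence interval -0.95 to -0.21), with an adjusted p of 0.0614 by limma. A two-sided exact permutation test of the means over every allocation of the 10 samples gave p = 0.0238, where 0.00794 is the smallest it can give, and p = 0.0556 with columns scaled to equal totals.

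The call on Scnn1a turned on single samples and on the model. Its adjusted p by limma was 0.0436 without Rragc +/+ replicate 5 and 0.0447 without Rragc S74N/+ replicate 2, and in the other leave-one-out fits it reached at most 0.161. DESeq2 gave an adjusted p of 0.0345 and edgeR one of 0.0665. In whole tissue, fewer cells of a type and less RNA per cell cannot be told apart, here and for every gene below.

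Scnn1b, the beta subunit, had normalized counts of 60.4, 54.1, 62.4, 50.7 and 47.8 in Rragc +/+ kidneys and 42.0, 45.6, 71.0, 66.2 and 53.4 in Rragc S74N/+ kidneys. Its Rragc S74N/+ samples spread to both sides of the other group, 2 below all and 2 above all of them. The means were 55.1 ± 6.25 and 55.6 ± 12.7, and the log2 fold change of -0.01 (95% confidence interval -0.41 to 0.39, adjusted p = 0.987 by limma) changed sign with the scaling. Scnn1g, the gamma subunit, had 59.3, 67.6, 73.0, 51.5 and 75.6 in Rragc +/+ kidneys and 59.7, 102, 70.0, 69.3 and 50.5 in Rragc S74N/+ kidneys. Rragc S74N/+ replicate 2 was the highest and replicate 5 the lowest of all 10. Its log2 fold change was 0.08 (95% confidence interval -0.34 to 0.49, adjusted p = 0.847 by limma). Both intervals overlap that of Scnn1a, and whether the 3 fold changes differ from each other was not tested.

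As a share of the 3 subunits' summed normalized counts, Scnn1a made up 78.7%, 79.0%, 72.5%, 78.0% and 70.5% in Rragc +/+ kidneys and 68.7%, 69.2%, 66.5%, 68.6% and 61.9% in Rragc S74N/+ kidneys. The highest Rragc S74N/+ share lay below the lowest Rragc +/+ share. This share was computed with the values of the genes known and is given without a test. The share of Scnn1b was 11.02% ± 1.22 and 14.8% ± 3.83, that of Scnn1g 13.2% ± 3.16 and 18.2% ± 2.05 (SD, n = 5 each), with overlapping groups for both. The summed level of Scnn1b and Scnn1g was 120 ± 11.9 and 126 ± 21.5 normalized counts. The gamma subunit had 1.2 ± 0.24 times the normalized count of the beta subunit in Rragc +/+ and 1.33 ± 0.54 times in Rragc S74N/+ kidneys.

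**Figure D2:**
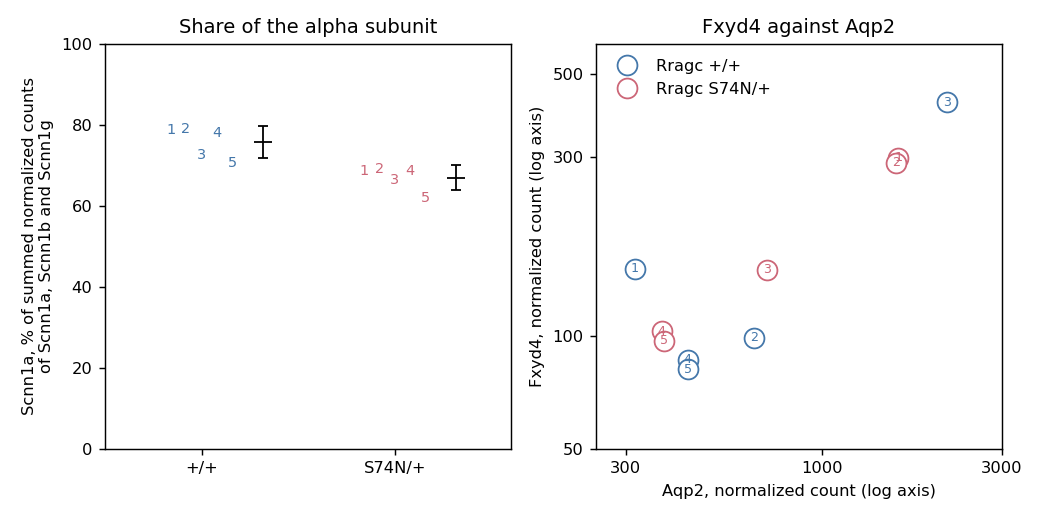
Left, the share of Scnn1a in the summed normalized counts of the 3 ENaC subunits, in percent from 0 to 100, with the mean and SD over 5 samples as black bars. The Rragc +/+ samples sit between 70.5% and 79.0% and the Rragc S74N/+ samples between 61.9% and 69.2%. Right, the normalized count of Fxyd4 against that of Aqp2 on log axes, where each circle is a sample with its replicate number. Rragc +/+ replicate 3 and Rragc S74N/+ replicates 1 and 2 stand apart at the upper right.

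The genes whose levels were most like those of Scnn1a over the 10 samples, after the genotype means were removed on the log2 scale, were Dll4 (r = 0.916), Kcnq1 (r = 0.915), a potassium channel of epithelia and heart, and Pex6 (r = 0.915), which serves peroxisome assembly. For Scnn1b they were Usp12 (r = 0.957), Ctbs (r = 0.941) and Lrrc66 (r = 0.922), and for Scnn1g Armcx2 (r = 0.938), Plekhg2 (r = 0.932) and Mknk1 (r = 0.896). These are the highest of 13236 correlations over 10 samples that share their size factors, and they describe likeness only. No gene was among the closest 3 of more than 1 subunit.

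The cells that carry ENaC were read from markers. The principal cells of the collecting duct are its main site, and of 8 principal cell markers tested (Aqp2, Aqp3, Aqp4, Avpr2, Apela, Gata3, Kcne1 and Npnt) 0 were called by limma. At an unadjusted p under 0.05 there were 2 of the 8, beside 25.4% of all genes, and they went opposite ways. These were Aqp4 (log2 fold change -1.35) and Kcne1 (1.21). Of the 8, 6 had a log2 fold change above 0 and 2 below it. With Elf5, which was too low to be tested, the summed normalized counts of the principal cell markers were 1764, 2066, 4329, 2209 and 2194 in Rragc +/+ kidneys and 4640, 3331, 2475, 1977 and 1697 in Rragc S74N/+ kidneys. The groups overlapped widely, and 1 Rragc +/+ and 2 Rragc S74N/+ samples stood above the rest. Aqp2, the water channel of these cells, and Npnt, a matrix protein of the duct, were the most abundant, with mean normalized counts of 800 and 822 in Rragc +/+ and 926 and 852 in Rragc S74N/+ kidneys.

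Of the markers of the segments upstream of the collecting duct, some were called lower. Among these segments, the late distal convoluted tubule and the connecting tubule also carry ENaC. All 6 distal convoluted tubule markers were called lower, led by Slc12a3, the thiazide-sensitive sodium chloride cotransporter, at 4056 ± 353 and 1078 ± 247 normalized counts (log2 fold change -1.94, SE 0.14, adjusted p = 1.61e-06 by limma), and including Klhl3, which controls that transporter's kinases (log2 fold change -1.47, adjusted p = 9.4e-05). Their sum ran from 4720 to 5639 in Rragc +/+ and from 1331 to 2032 in Rragc S74N/+ kidneys. Of 5 connecting tubule markers, 2 were lower, Calb1 (calbindin, a calcium buffer; log2 fold change -0.74, adjusted p = 0.00918) and Klk1 (tissue kallikrein; log2 fold change -0.67, adjusted p = 0.0329, a call lost without Rragc +/+ replicates 1, 2 or 4 or Rragc S74N/+ replicates 4 or 5, at up to 0.0997). The most abundant connecting tubule marker, S100g, had a log2 fold change of -0.44 (adjusted p = 0.118, and 0.0154 without Rragc S74N/+ replicate 1). The sum of the 5 ran from 8045 to 9803 in Rragc +/+ and from 5399 to 7491 in Rragc S74N/+ kidneys. The lower Scnn1a values in Rragc S74N/+ kidneys stand beside lower levels of these segment markers. The principal cell markers overlapped in their sum, and single ones went in both directions. The part of cell make-up in the Scnn1a values was not tested.

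**Figure D3:**
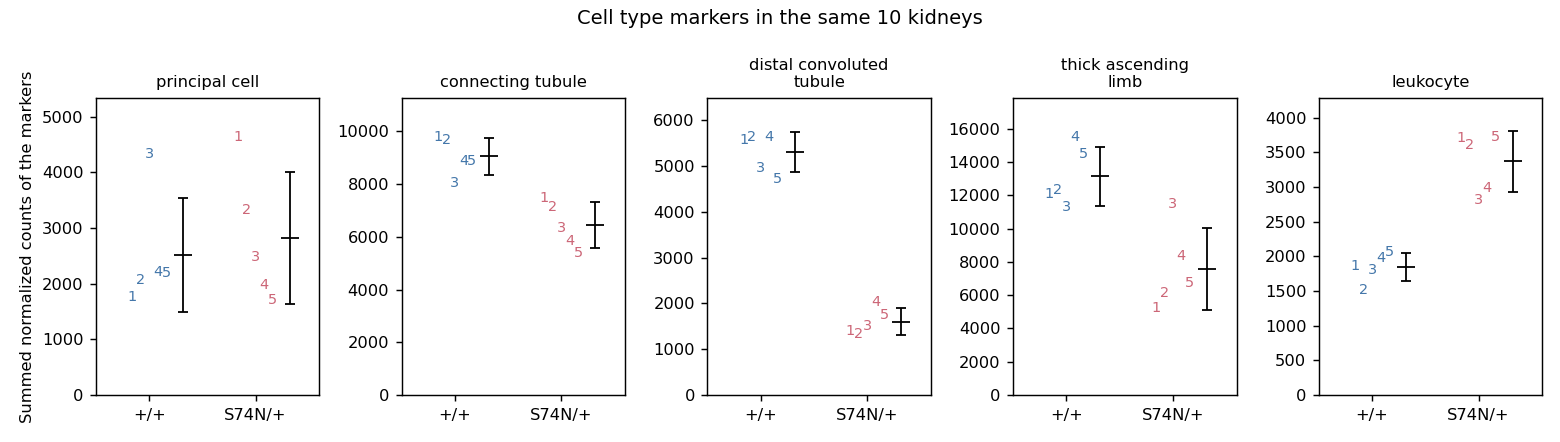
Summed normalized counts (vertical axes, from 0) of the markers of 4 tubule segments or cell types and of leukocytes in each kidney. Digits are replicate numbers and black bars the mean and SD over 5 samples. The genotypes do not overlap for connecting tubule, distal convoluted tubule and leukocyte markers and overlap for the principal cell and thick ascending limb markers.

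Other cell types were read in the same way, beside the 6.03% of all genes tested that limma called. Of 8 intercalated cell markers, 1 was called higher (Slc26a4, adjusted p = 0.0396 by limma, with overlapping groups) and 2 lower (Slc4a1 and Aqp6). The call on Aqp6 was lost in 7 of 10 leave-one-out fits, all but those without Rragc +/+ replicate 5 or Rragc S74N/+ replicates 1 or 3. The calls on Slc26a4 and Slc4a1 were not followed in these fits. The most abundant of the 8, the proton pump subunit Atp6v1g3, had a log2 fold change of 0.42 (adjusted p = 0.0764, and 0.0355 without Rragc S74N/+ replicate 3). Of 6 thick ascending limb markers, 4 were lower, among them Umod, the main protein of normal urine (log2 fold change -1.55, adjusted p = 0.0013), while the cotransporter Slc12a1 was at 0.04 (adjusted p = 0.909). Leukocyte markers were higher in 4 of 13 (Ptprc, Cd74, C1qb and Lyz2) and lower in 0, and their sum ran from 1519 to 2058 in Rragc +/+ and from 2814 to 3725 in Rragc S74N/+ kidneys. Cd74, the MHC class II invariant chain, had a log2 fold change of 1.05 (adjusted p = 5.06e-04) and Csf1r, a macrophage receptor, 0.44 (adjusted p = 0.0735, and 0.026 without Rragc +/+ replicate 5). Fibroblast markers were higher in 2 of 5 (Col1a1, log2 fold change 1.19, and Col1a2, 0.53, a call kept in 4 of 10 leave-one-out fits, those without Rragc +/+ replicate 3 or Rragc S74N/+ replicates 1, 3 or 4). Endothelial markers were lower in 1 of 6 (Plvap), with Kdr at -0.49 (adjusted p = 0.0506) and Pecam1 at 0.31 (adjusted p = 0.3). Of 4 podocyte markers reported here, 1 was higher (Synpo, 0.45, a call kept only without Rragc +/+ replicate 5 or Rragc S74N/+ replicate 3 among 10 leave-one-out fits), with Podxl at 0.11 (adjusted p = 0.687). Proximal tubule markers were lower in 1 of 10 (Slc5a2), with Kap at 0.14 and Slc34a1 at -0.17.

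The 2 receptors were present at very different levels. Nr3c2, the mineralocorticoid receptor, was the scarcest of the 10 genes, with 12 to 23 reads per Rragc +/+ sample and 4 to 23 per Rragc S74N/+ sample. Its normalized counts were 13.4, 20.8, 11.5, 20.1 and 17.9 in Rragc +/+ kidneys and 19.6, 11.6, 23.0, 11.2 and 3.89 in Rragc S74N/+ kidneys. Rragc S74N/+ replicate 5 was the lowest of all and replicate 3 the highest. Its log2 fold change was -0.42 (95% confidence interval -1.27 to 0.44, adjusted p = 0.549 by limma). Without Rragc S74N/+ replicate 5, the sample with 4 reads, it was -0.06.

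Nr3c1, the glucocorticoid receptor, had normalized counts of 367, 375, 347, 383 and 425 in Rragc +/+ kidneys and 435, 409, 424, 464 and 534 in Rragc S74N/+ kidneys. All 5 Rragc S74N/+ samples lay above the Rragc +/+ median and 3 above every Rragc +/+ sample, and only Rragc +/+ replicate 5 lay within the other group's range. The means were 379 ± 28.9 and 453 ± 49.7 (SD, n = 5 each). The log2 fold change was 0.25 (SE 0.11, 95% confidence interval 0.02 to 0.49), with an unadjusted p of 0.036 and an adjusted p of 0.165 by limma, and the exact permutation test of the means gave p = 0.0238. The adjusted p stayed between 0.0642 and 0.323 in all 24 alternative fits. Leukocytes carry this receptor too, and the leukocyte markers given above were higher in the same kidneys; their part in the Nr3c1 values was not tested. Reads of Nr3c1 outnumbered those of Nr3c2 by 18 to 30.1 times in Rragc +/+ kidneys and by 18.4 to 137.5 times in Rragc S74N/+ kidneys, the widest ratio being that of replicate 5 with its 4 reads of Nr3c2.

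Hsd11b2 had normalized counts of 370, 438, 352, 328 and 237 in Rragc +/+ kidneys and 186, 500, 497, 473 and 368 in Rragc S74N/+ kidneys. Rragc S74N/+ replicates 2, 3 and 4 lay above every Rragc +/+ sample, and Rragc S74N/+ replicate 1 lay below all of them. The means were 345 ± 73.0 and 405 ± 134, and the log2 fold change was 0.17 (95% confidence interval -0.33 to 0.67, adjusted p = 0.692 by limma). Without Rragc S74N/+ replicate 1 the log2 fold change was 0.43, at an adjusted p of 0.0881. Hsd11b1, the enzyme that works in the opposite direction and regenerates active glucocorticoid, had mean normalized counts of 199 ± 20.2 and 179 ± 27.7 (log2 fold change -0.16, adjusted p = 0.473).

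The 4 corticosteroid-induced genes did not share a direction. Sgk1, the kinase that protects ENaC from removal, had normalized counts of 249, 278, 294, 396 and 239 in Rragc +/+ kidneys and 352, 312, 210, 216 and 273 in Rragc S74N/+ kidneys. Rragc +/+ replicate 4 was the highest, and Rragc S74N/+ replicates 3 and 4 were the lowest. On the log2 scale the fold change was -0.10 (95% confidence interval -0.46 to 0.26, adjusted p = 0.757 by limma), and its sign turned without Rragc +/+ replicate 4. The windows of Sgk1 shown above were thus those of a gene with no call between genotypes.

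Tsc22d3, which encodes the glucocorticoid-induced leucine zipper protein GILZ, had the largest log2 fold change in size of the 10 genes in the limma fit. Its normalized counts were 106, 124, 99.8, 94.3 and 60.7 in Rragc +/+ kidneys and 34.5, 68.8, 94.0, 35.6 and 35.9 in Rragc S74N/+ kidneys. Rragc S74N/+ replicates 1, 4 and 5 lay close together near 35 and below every Rragc +/+ sample, while replicates 2 and 3 reached into the range of the Rragc +/+ group, whose replicate 5 was its lowest. The means were 97.0 ± 23.1 and 53.8 ± 26.7 (SD, n = 5 each). The log2 fold change was -0.93 (SE 0.28, 95% confidence interval -1.52 to -0.34), with an adjusted p of 0.0584 by limma. The exact permutation test of the means gave p = 0.0397, and p = 0.0556 with columns scaled to equal totals.

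As for Scnn1a, the call on Tsc22d3 turned on single samples and on the model. Its adjusted p by limma was 0.0361 without Rragc +/+ replicate 5 and 0.0149 without Rragc S74N/+ replicate 3, and it reached at most 0.152 in the other leave-one-out fits. DESeq2 gave an adjusted p of 0.0393 and edgeR one of 0.079. The samples' titles fall into a range of numbers under 200, with 3 samples per genotype, and one over 200, with 2 per genotype. Within the lower range the mean normalized count of Tsc22d3 was 110 in Rragc +/+ and 65.8 in Rragc S74N/+ kidneys, and within the higher range 77.5 and 35.8. For Scnn1a those means were 419 and 278, then 329 and 232.7. The direction was the same in both ranges for these genes, Nr3c1, Fkbp5 and Fxyd4, and not for Nr3c2, Sgk1, Scnn1b and Scnn1g. For Nr3c2 the mean of Rragc S74N/+ less that of Rragc +/+ kidneys was 2.82 normalized counts in the lower range and -11.5 in the higher one. Sgk1 had means of 274 and 292, then 317 and 244, Scnn1b had 59.0 and 52.8, then 49.2 and 59.8, and Scnn1g had 66.6 and 77.1, then 63.6 and 59.9. Hsd11b2 had 387 and 394, then 283 and 420, and on the log2 scale its difference was -0.10 in the lower range and 0.58 in the higher one. With the range as a term in the limma fit, the adjusted p was 0.0332 for Tsc22d3 and 0.0459 for Scnn1a. The labels do not say what the title numbers stand for.

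Fkbp5, a co-chaperone that lowers the affinity of the glucocorticoid receptor for its ligand and is itself induced by it, had normalized counts of 101, 88.4, 81.6, 52.4 and 67.7 in Rragc +/+ kidneys and 125, 104, 80.0, 99.8 and 72.9 in Rragc S74N/+ kidneys. Rragc S74N/+ replicates 1 and 2 lay above every Rragc +/+ sample, and the other 3 lay within the range of that group. The log2 fold change was 0.31 (95% confidence interval -0.11 to 0.73, adjusted p = 0.352 by limma), of the opposite sign to that of Tsc22d3.

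Fxyd4, a collecting duct protein that modulates the sodium pump, varied more among mice than between genotypes. Its normalized counts were 151, 98.8, 419, 86.5 and 81.6 in Rragc +/+ kidneys and 298, 290, 150, 103 and 97.2 in Rragc S74N/+ kidneys. One Rragc +/+ sample and 2 Rragc S74N/+ samples were high, and they were also the 3 highest for Aqp2, whose normalized counts were 317, 660, 2145, 438 and 440 in Rragc +/+ and 1594, 1568, 714, 374 and 379 in Rragc S74N/+ kidneys. Fxyd4 had a log2 fold change of 0.31 (95% confidence interval -0.56 to 1.18, adjusted p = 0.679 by limma) and Aqp2 one of 0.31 (adjusted p = 0.73). That of Fxyd4 was 0.72 without Rragc +/+ replicate 3 and 0.10 without Rragc S74N/+ replicate 1. The 3 genes most like Fxyd4 were Igfbp2 (r = 0.990), Ly6d (r = 0.975) and Wnt4 (r = 0.971), and these are named after their values were seen. Wnt4, a secreted signal expressed in the medulla, had normalized counts of 83.5, 104 and 76.6 in those 3 kidneys and of 8.95 to 22.0 in the other 7. The amount of medulla in each piece of kidney is not in the labels, and its part in these values was not tested. Scnn1a, Scnn1b and Hsd11b2 were not raised together in those 3 kidneys, Hsd11b2 being at 352, 186 and 500 there.

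Whether the genes varied together among the 10 samples was asked for 7 pairs, of which 1 pairs Fkbp5 with Per1. For these, deviations from the genotype means on the log2 scale were correlated with an exact permutation test within genotype, and 0 of 7 passed after adjustment over the pairs. The largest was that of Hsd11b2 and Scnn1b (Pearson's r = 0.64, p = 0.0813, adjusted p = 0.542; Spearman's rho = 0.47, p = 0.279, adjusted p = 1), and without the 2 samples farthest from the median r was 0.14. Scnn1b and Scnn1g, which are subunits of 1 channel, gave r = -0.06 (exact permutation p = 0.91) and rho = -0.01, and Tsc22d3 and Fkbp5, which are both glucocorticoid targets, gave r = 0.03 (exact permutation p = 0.944) and rho = 0.07.

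Among other genes that control ENaC or respond to aldosterone, 17 tested genes are reported here. Of these, 2 were called higher in Rragc S74N/+ kidneys by limma and 0 lower, beside 3.45% and 2.58% of all genes. The median log2 fold change of the 17 was 0.11, and 8 of the 17 had an unadjusted p under 0.05, beside the 25.4% of all genes. The genes called higher were Nedd4, a ubiquitin ligase closely related to the one that acts on ENaC, and Lcn2. Nedd4 had normalized counts of 946, 805, 1063, 1000 and 1117 in Rragc +/+ and 2104, 1277, 1353, 1462 and 1349 in Rragc S74N/+ kidneys, without overlap (log2 fold change 0.60, SE 0.14, adjusted p = 0.0213), and its call was lost without Rragc +/+ replicate 1 (0.0583) or 2 (0.0688). Nedd4l, which encodes NEDD4-2 itself, had means of 387 ± 29.9 and 423 ± 55.9 (log2 fold change 0.12, adjusted p = 0.555). Lcn2, lipocalin 2, an aldosterone target that is better known as a protein of injured tubules and neutrophils, had 7.83, 9.36, 23.0, 6.11 and 9.95 in Rragc +/+ and 307, 72.7, 27.0, 18.3 and 23.3 in Rragc S74N/+ kidneys. Its groups overlapped, its log2 fold change of 2.15 (SE 0.60, adjusted p = 0.0446) rested in part on Rragc S74N/+ replicate 1, and the call was lost in 6 of 10 leave-one-out fits, namely those without Rragc +/+ replicates 1, 2, 4 or 5 and without Rragc S74N/+ replicates 2 or 5, at an adjusted p of up to 0.105.

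Of the genes on that list that limma did not call, Prss8, a membrane protease that activates ENaC, had 605 ± 71.2 and 465 ± 76.6 normalized counts (log2 fold change -0.39, 95% confidence interval -0.67 to -0.10, adjusted p = 0.0925). Kcnj1, the potassium channel ROMK, had 155 ± 21.9 and 109 ± 35.2 (log2 fold change -0.55, adjusted p = 0.0947), and 4 of 5 Rragc S74N/+ samples lay below every Rragc +/+ sample. Without Rragc S74N/+ replicate 4 its adjusted p was 0.0349. Reads of whole kidney do not tell from which cells they came. Zbtb16, a transcriptional repressor induced by both receptors, had 12.3, 12.5, 21.1, 8.73 and 13.9 in Rragc +/+ and 52.2, 34.9, 13.0, 76.4 and 22.3 in Rragc S74N/+ kidneys (log2 fold change 1.28, adjusted p = 0.0677 by limma, 0.0371 by edgeR and 0.00756 by DESeq2, and 0.0179 by limma without Rragc S74N/+ replicate 3). Of its Rragc S74N/+ samples, 4 lay above every Rragc +/+ sample. Per1, a clock gene induced by aldosterone and glucocorticoids, had 27.6 ± 8.94 and 22.5 ± 16.4 (log2 fold change -0.63, 95% confidence interval -1.70 to 0.45, adjusted p = 0.463).

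Genes known to be induced by glucocorticoids moved in both directions. Of 20 tested, 2 were called higher (Pck1 and Lcn2) and 3 lower (Mt1, Mt2 and Sdc4), beside 3.45% and 2.58% of all genes. The median log2 fold change over the 20 was -0.20. The log2 fold change was below 0 for 13 of the 20 genes and above 0 for 7. An unadjusted p under 0.05 was found for 11 of the 20, beside 25.4% of all genes. The metallothioneins Mt1 and Mt2, which bind zinc and respond to metals as well as to glucocorticoids, were lower without overlap. Mt1 had 835, 838, 743, 714 and 715 normalized counts in Rragc +/+ and 257, 473, 307, 287 and 256 in Rragc S74N/+ kidneys (log2 fold change -1.32, SE 0.15, adjusted p = 1.46e-04), and Mt2 had means of 219 ± 19.9 and 118 ± 26.3 (log2 fold change -0.92, adjusted p = 0.0058). Both calls were kept in all 10 leave-one-out fits. Sdc4, a heparan sulfate proteoglycan, had 1852 ± 294 and 1239 ± 306 (log2 fold change -0.60, adjusted p = 0.0423, a call lost without any of Rragc +/+ replicates 1 to 4 or Rragc S74N/+ replicates 4 or 5, at up to 0.126, and under equal column totals, at 0.0723).

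Pck1, the cytosolic PEPCK of gluconeogenesis, had 1454, 1163, 1577, 1119 and 1008 in Rragc +/+ and 2412, 2231, 1930, 1805 and 1368 in Rragc S74N/+ kidneys. Of 5 Rragc S74N/+ samples, 4 lay above every Rragc +/+ sample (log2 fold change 0.62, SE 0.16, adjusted p = 0.0316), and the call was lost without Rragc +/+ replicates 2, 4 or 5 or Rragc S74N/+ replicates 2 or 4, at an adjusted p of up to 0.0883. Pck1 is a gene of the proximal tubule, where 1 of 10 markers was called, Slc5a2, which was lower, beside 6.03% of all genes. The part of cell make-up in the Pck1 values was not tested. Without a call, Dusp1, a phosphatase of MAP kinases, had a log2 fold change of -0.88 (adjusted p = 0.0551), close to that of Tsc22d3, and Rgs2, a brake on G protein signaling, one of 0.75 (adjusted p = 0.0589).

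The receptors are held ready for steroid by the HSP90 chaperone machinery. Of 18 chaperones, steroid enzymes and receptor cofactors tested, 2 were called higher and 0 lower, beside 3.45% and 2.58% of all genes. Their median log2 fold change was 0.02, and 3 of the 18 had an unadjusted p under 0.05, beside 25.4% of all genes. Hsp90aa1, the inducible HSP90, had 463, 512, 511, 502 and 617 normalized counts in Rragc +/+ and 913, 675, 674, 867 and 1030 in Rragc S74N/+ kidneys, without overlap (log2 fold change 0.66, SE 0.13, adjusted p = 0.01), a call kept in all 10 leave-one-out fits. Hspa4, an HSP70 family member that acts as an exchange factor, had means of 269 ± 64.8 and 443 ± 85.6 (log2 fold change 0.73, adjusted p = 0.0233, a call lost without Rragc +/+ replicates 1 or 2 or Rragc S74N/+ replicates 4 or 5, at up to 0.0743). The constitutive Hsp90ab1 (log2 fold change 0.22, adjusted p = 0.271) and the receptor co-chaperones Fkbp4 (-0.25, adjusted p = 0.211) and Ptges3 (-0.07, adjusted p = 0.689) were not called.

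**Figure D4:**
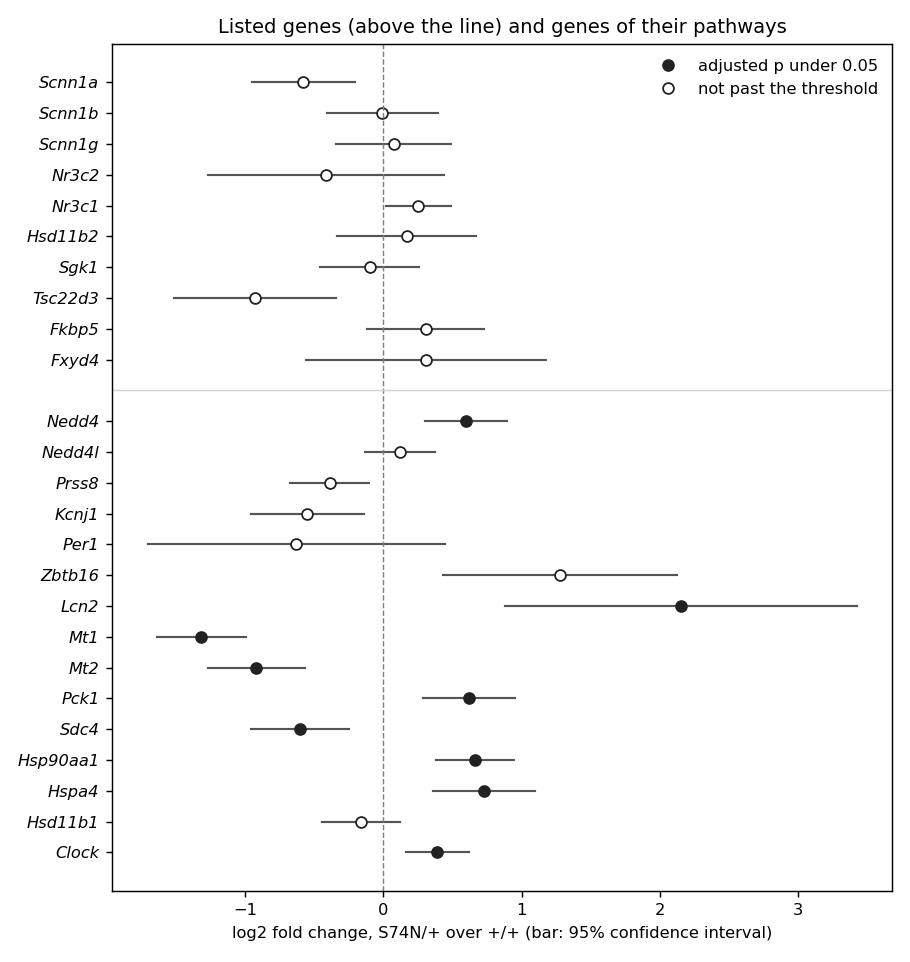
Log2 fold change of Rragc S74N/+ over Rragc +/+ kidneys with its 95% confidence interval by limma, for the 10 genes (above the line) and for named genes of their pathways (below it). Filled circles mark an adjusted p under 0.05 over all genes tested. The 10 circles above the line are open, from -0.93 for Tsc22d3 to 0.31 for Fxyd4, and the filled ones below it run from -1.32 for Mt1 to 2.15 for Lcn2.

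Corticosteroid levels follow the time of day, and the hour of sampling is not in the labels. Of 11 clock genes tested, 1 was called, Clock itself, with 196 ± 8.35 and 258 ± 17.5 normalized counts and no overlap (log2 fold change 0.39, adjusted p = 0.0441), a call lost in 9 of 10 leave-one-out fits, all but that without Rragc S74N/+ replicate 1. Genes whose level swings widely over the day, such as Dbp and Nr1d1, were not called, and their intervals were wide. Dbp had a log2 fold change of -0.60 (95% confidence interval -1.54 to 0.35, adjusted p = 0.424 by limma). Nr1d1 had one of 0.23 (95% confidence interval -0.22 to 0.67, adjusted p = 0.524 by limma). Of 6 immediate early genes, which rise within minutes of handling or stress, 0 were called by limma, beside 6.03% of all genes. An unadjusted p under 0.05 was found for 1 of the 6, beside 25.4% of all genes. Their log2 fold change was above 0 for 5 and below 0 for 1, with a median of 0.29. The part of sampling time or of circulating hormone in the values of the 10 genes was not tested, as no hormone level comes with these samples.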

How the data were processed

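Total RNA of whole kidney (per the labels, 300 ng per library with quality scores of 6.2 to 7 and a mean of 6.7) was sequenced with the QuantSeq 3′ FWD kit. Per the submitters' processing notes and the study's methods, the authors used FastQC 0.11.7, TopHat2 2.0.10, Bowtie 1.0.0, SAMtools 0.1.19 and HTSeq 0.6.1 on build GRCm39, counted on the sense strand. The deposited values are a signal unit: read counts divided by a size factor of each sample, for 13299 genes and 10 samples. The lowest mean of any gene in the table was 4.37, so low genes were dropped before deposit by a rule not stated.

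Genes with at least 5 normalized counts in at least 5 samples (13236; 63 removed) were fitted as log2(value + 1), a scale that understates changes of low genes, with limma 3.58.1 in R 4.3.3, eBayes with a variance trend and genotype as the only term, two-sided. Values were whole multiples of 1 read in every column within 0.001 reads, so edgeR 4.0.16 and DESeq2 1.42.0 were run on recovered reads as alternatives; since 2 columns have a step close to 1 read (Rragc +/+ replicate 5 and Rragc S74N/+ replicate 3), both were also run on the other 8 samples, which was decided after seeing the data. The code of the fit was run on simulated counts with independent samples and the same dispersion for every gene. That run does not speak for the accuracy of the fit on these samples. The step that turned values into reads also gave the depth per sample, and intervals cover the spread between samples. The labels do not say that samples of a genotype were separate mice, while the study counts n as animals per group.

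The 10 genes and all lists were chosen with earlier results of these data known. Named genes were, by a fixed rule, the 10 genes, Rragc, up to 5 called genes of each pathway list with the smallest p, 9 preset genes (Nedd4l, Prss8, Per1, Zbtb16, Hsd11b1, Aqp2, Kcnj1, Calb1 and Slc12a3) and the 2 most abundant markers of each cell type, and for each ENaC subunit the 3 genes of highest correlation. Genes named outside it (Igfbp2, Ly6d, Wnt4, Dusp1, Rgs2, Hsp90ab1, Fkbp4, Ptges3, Dbp, Nr1d1, Aqp4, Kcne1, Slc26a4 and marker genes listed without a value) were chosen after their values were seen. Of the lists, 2 genes each of the ENaC, glucocorticoid and immediate early lists, Ciart, Cd79a and Xist were not in the table (Bmal1 is there as Arntl). Promoter windows came from RefSeq on GRCm38.p6, another build than that of the reads. Some genes of the lists are not reported here, and list counts leave them out.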

Additional observations from a re-analysis of the deposited data

Results flagged for a closer look

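In 94 groups of 5 samples (47 genes in 2 genotypes), 9 had 1 sample farther from its nearest neighbour than Dixon's 95% limit of 0.71 of the group's range. Chance would give about 4.7 if the groups were independent. They are not, as the 47 genes share the same 10 samples, so the 2 numbers cannot be compared. Fxyd4 was the 1 gene of the 10 among the 9 flagged groups, at a normalized count of 419 in Rragc +/+ replicate 3, and Aqp2 stood out in the same sample at 2145, as did Lcn2 at 23.0. Rragc S74N/+ replicate 1 stood out in 4 of the groups, with Nedd4 at 2104, Lcn2 at 307 and Npnt at 1308 as the highest values and Kdr at 236 as the lowest. Mt1 in Rragc S74N/+ replicate 2 (473) and Aqp6 in Rragc S74N/+ replicate 3 (159) were each the highest of their group. Without Rragc S74N/+ replicate 1, 0 of the 10 genes were called by limma and 900 genes were called in all.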

How the results depend on the processing

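The direction of Scnn1a, Tsc22d3, Nr3c1, Hsd11b2, Fkbp5 and Fxyd4 was kept under all 24 alternative fits to the samples of both title ranges, and that of Nr3c2 under all of these but the filter at a mean of 50, which removes it. Within the title numbers under 200 alone, Nr3c2 (0.22) and Hsd11b2 (-0.10) turned. The number of the 10 genes called was 0 with other pseudocounts, filters, scalings and variance models, 2 with the title number range as a term, 2 with DESeq2, 0 with edgeR, 1 with edgeR and 2 with DESeq2 on 8 samples, and 0 to 2 when 1 sample was left out. The number of all genes called was 391 without a variance trend, 1354 with DESeq2 (1402 on 8 samples) and 311 to 902 with 1 sample left out, where it was 368, 311, 383 and 371 without Rragc +/+ replicates 1, 2 and 4 and Rragc S74N/+ replicate 5. The cause was not tested. No paired analysis was possible because the labels carry no replicate numbers. Of the called genes named, without a variance trend Nedd4, Lcn2, Pck1, Sdc4, Hspa4, Clock, Klk1, Aqp6, Col1a2 and Synpo lost their calls (0.0734 to 0.116). Equal column totals ended those of Sdc4 (0.0723), Klk1 (0.0542) and Aqp6 (0.0548), totals without mitochondrial genes that of Sdc4 (0.0594), and edgeR those of Sdc4 (0.0517) and Aqp6 (0.0564). Lcn2 lost its call with a pseudocount of 5 (0.0506), a mean of at least 50 (0.0609) and robust eBayes (0.108), Aqp6 with robust eBayes (0.0603), Col1a2 with a pseudocount of 0.5 (0.0502), the title range (0.0546) and edgeR on 8 samples (0.0589), Pck1 with edgeR on 8 samples (0.0798), and Clock with edgeR (0.0685) and DESeq2 (0.0576) on 8 samples. Small fold changes turned sign. Scnn1b came to 0.0701, 0.0101 and 0.0331 under equal totals, equal 75th percentiles and totals without mitochondrial genes, 0.0224 with edgeR and 0.0141 with DESeq2, and ran from -0.101 to 0.0851 with 1 sample left out. Slc12a1 came to -0.0712 and -0.0794 with edgeR and DESeq2 on 8 samples and ran from -0.123 to 0.154 with 1 left out. The leave-one-out ranges were -0.0659 to 0.183 for Scnn1g, -0.199 to 0.0171 for Sgk1 and -0.129 to 0.133 for Npnt. The correlation of Scnn1b and Scnn1g was 0.0561 under equal totals, and without the 2 farthest samples that of Hsd11b2 and Fxyd4 was 0.171 and that of Sgk1 and Tsc22d3 was 0.107. Depth limits Nr3c2 most, at 4 to 23 reads per sample.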
